A study of Mus musculus with 4 samples.

Results

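Ccl3, Ccl4, Ccl6 and Ccl9 are 4 mouse CC chemokine genes that lie in one chemokine cluster. They were taken by name, matched to NCBI Gene numbers 20302, 20303, 20305 and 20308, and are 4 of 17723 genes listed in any library. Natural killer (NK) cells, lymphocytes that kill leukaemia cells without priming, had been sorted from spleens of C57BL/6J mice (6 to 8 weeks old) by surface DNAM-1, an activating receptor encoded by Cd226. The 4 groups are DNAM-1+ and DNAM-1- cells of normal spleen, labelled day 0, and the same sorted fractions at day 17 after transfer of GFP-marked MLL-AF9 acute myeloid leukaemia (AML) cells into mice that were not irradiated. MLL-AF9 is a fusion oncogene that produces a transplantable myeloid leukaemia. Each group holds 1 library, so a difference between 2 libraries is without replicates. The labels name neither the other sort gates, nor the purity, nor the number of mice behind a library.

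CC chemokines are small secreted proteins that draw leukocytes along a gradient through G protein-coupled receptors. CCL3 (MIP-1α) and CCL4 (MIP-1β) are made within hours by activated NK and T cells and by macrophages. CCL3 binds CCR1. CCL6 and CCL9 are known in mice as products of macrophages, monocytes and other myeloid cells, and act through CCR1.

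All levels are FPKM as deposited (fragments per kilobase of transcript, scaled to the depth of the library), a scale that allows levels of different genes to be compared. The libraries listed between 15460 and 16161 genes. Their depth, estimated from the smallest steps in microRNA values, was between 8800000 and 9200000 reads. The sort shows in Cd226, whose level was 38.58 and 36.06 FPKM in DNAM-1+ cells and 0.45 and 0.58 in DNAM-1- cells (normal and AML spleen). None of the 12 NK cell markers was at 0 in any library, and their summed level lay between 7297 and 8763 FPKM. Log2 ratios were taken after adding 1 FPKM to both values. A gene was counted as 2-fold different where the absolute log2 ratio was 1 or more and the higher library had 5 FPKM or more.

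Ccl3 and Ccl4 were abundant in every library, and Ccl6 and Ccl9 were low in DNAM-1+ cells. Levels are given with the normal pair before the AML pair and DNAM-1+ first in each. Ccl3 was at 163.78 and 248.68 FPKM without leukaemia, then at 256 and 286.81 with it. Ccl4 was at 80.95 and 150.65 FPKM without leukaemia, then at 152.41 and 134.17 with it. For both genes, the DNAM-1+ library of normal spleen was the lowest of the 4 and stood apart from the other libraries. The share of all genes with this library lowest was not counted, so the arrangement is not shown to be particular to them. Ccl6 was at 3.73 and 26.88 FPKM without leukaemia, then at 4.24 and 23.24 with it. Ccl9 was at 4.41 and 10.57 FPKM, then at 6.04 and 13.18. For Ccl6 and Ccl9, both DNAM-1+ libraries lay below both DNAM-1- libraries, an arrangement seen in 25.2% of the 9074 genes that reached 5 FPKM in a library. The opposite arrangement was seen in 28.5%.

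**Figure D1:**
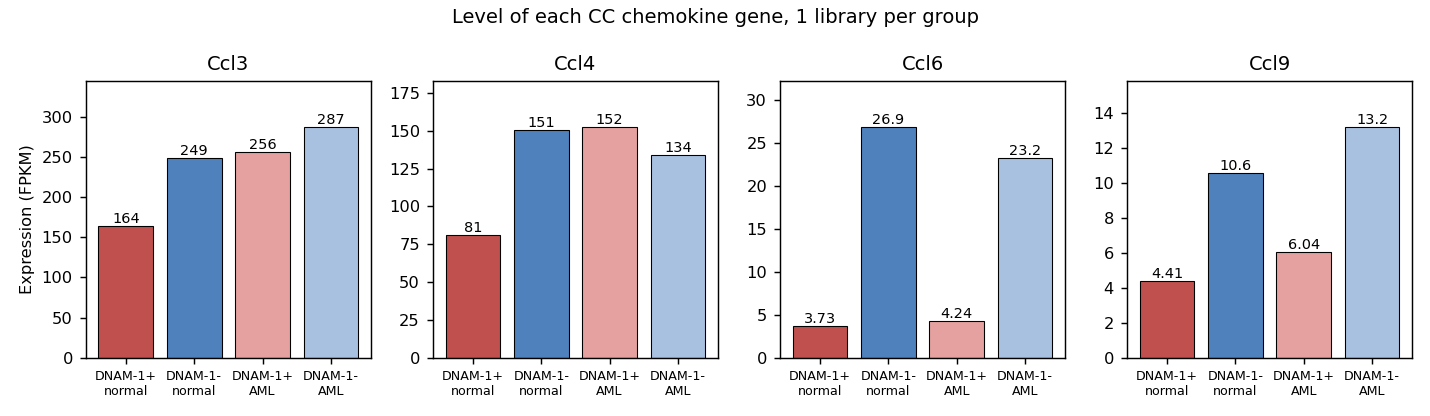
Level of each gene in FPKM (linear axis from 0, its own scale in each panel), with 1 bar for each library and no error bar because each group has 1 library. Ccl3 and Ccl4 were lowest in the DNAM-1+ normal library (163.78 and 80.95 FPKM), and Ccl6 and Ccl9 were low in both DNAM-1+ libraries.

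The order of the levels differed between the abundant pair and the low pair. Ccl3 ran from DNAM-1- AML through DNAM-1+ AML and DNAM-1- normal to DNAM-1+ normal. The middle pair of these differed by 1.03-fold, with a 95% counting interval of 0.962 to 1.1, and the step to the lowest library was 1.52-fold (1.41 to 1.64). Ccl4 ran from DNAM-1+ AML through DNAM-1- normal and DNAM-1- AML to DNAM-1+ normal, with steps of 1.01-fold (0.92 to 1.11), 1.12-fold (1.02 to 1.24) and 1.66-fold (1.48 to 1.86). For Ccl6 the one large step, 5.48-fold (4.09 to 7.34), lay between DNAM-1- AML and DNAM-1+ AML. The 2 steps on either side of it, 1.16-fold and 1.14-fold, had counting intervals that included 1. Ccl9 had its largest step, 1.75-fold (1.44 to 2.12), between DNAM-1- normal and DNAM-1+ AML. These intervals rest on about 1100 to 1845 reads for Ccl3, 465 to 857 for Ccl4, 48 to 336 for Ccl6 and 120 to 345 for Ccl9. They describe counting error and leave out the spread between mice.

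Ccl6, the gene of a chemokine known from myeloid cells, was 7.21-fold lower in the DNAM-1+ than in the DNAM-1- fraction of normal spleen (counting interval 5.33 to 9.75) and 5.48-fold lower in AML spleen. limma, fitted to log2(FPKM + 1) of all 4 libraries with the spleen as a second term, tests the mean difference of both spleens against 0. In this fit Ccl6 fell by 2.38 on the log2 scale in the DNAM-1+ fraction (SE 0.11, adjusted p = 5.21e-05, lower in 2 of 2 spleens). Ccl9, whose product is also called MIP-1γ, was 2.40-fold lower in normal spleen (1.94 to 2.97) and 2.18-fold lower in AML spleen (1.81 to 2.63). It fell by 1.05 (SE 0.10, limma adjusted p = 0.00105, lower in 2 of 2 spleens). The residual of the fit is the change of the difference between the spleens, with 1 degree of freedom, moderated across genes. With no floor on low values the same fit called none of 17723 genes, and the adjusted p of both genes was 0.117. In bulk RNA, fewer cells of a type and less RNA per cell cannot be told apart.

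Both genes passed the 2-fold count in each spleen, so that 2 of 4 chemokine genes had a 2-fold lower level in the DNAM-1+ fraction, beside 3.97% of all genes for normal and 3.19% for AML spleen (3.78% and 3.05% of protein-coding genes). None was 2-fold higher, beside 1.28% and 0.894% (1.09% and 0.649% of protein-coding genes). limma called 2 of the 4 as lower, where 8.38% of 9074 genes were called lower and 7.35% higher. None of the 4 was called higher, and at an unadjusted p under 0.05 none was higher and 3 were lower. The share of all genes under this unadjusted limit was not counted, so the unadjusted counts here and below have no background beside them. The median log2 ratio of the 4 was -0.99 without and -0.59 with leukaemia, and over all genes tested it was 0.01 in each.

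Ccl3 and Ccl4, the abundant pair of the set, differed less between the sorted fractions. In normal spleen Ccl3 was 1.52-fold lower and Ccl4 1.86-fold lower in DNAM-1+ cells, with counting intervals of 1.41 to 1.64 and 1.66 to 2.08. In AML spleen Ccl3 was 1.12-fold lower (1.05 to 1.2) and Ccl4 1.14-fold higher (1.03 to 1.25) in DNAM-1+ cells. The DNAM-1+ and DNAM-1- libraries overlapped for both genes. Over both spleens the difference was -0.38 on the log2 scale for Ccl3 (SE 0.10, limma adjusted p = 0.0577) and -0.35 for Ccl4 (SE 0.22, adjusted p = 0.347), and neither was called. Ccl3 passed the threshold where only protein-coding genes were fitted (adjusted p = 0.0189) or the floor was 20 FPKM (adjusted p = 0.0272). The level of Ccl3 was 2.02, 1.65, 1.68 and 2.14 times that of Ccl4 in the same library order. Ccl3 thus exceeded Ccl4 in every library. The level of Ccl6 was 0.846, 2.54, 0.702 and 1.76 times that of Ccl9, so that Ccl6 exceeded Ccl9 in the DNAM-1- libraries alone.

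The DNAM-1 ratio of Ccl4 differed most between the spleens. Its log2 ratio was -0.89 without and 0.18 with leukaemia, a change of 1.07 (1.08 without the added 1 FPKM, counting interval 0.86 to 1.30). A change of 1 or more upwards was seen in 0.661% of 9074 genes and in 0.139% of 8658 protein-coding genes, and one downwards in 0.43% and 0.0578%. Ccl4 was the 1 member past this limit. The ratio of Ccl3 differed in the same direction, from -0.60 to -0.16, a change of 0.44 (counting interval 0.29 to 0.58). The changes of Ccl6 (0.35) and Ccl9 (0.09) had counting intervals that included 0, from -0.21 to 1.00 and from -0.27 to 0.54. With 1 library for each group no residual degrees of freedom remain for the change, which carries no test.

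**Figure D2:**
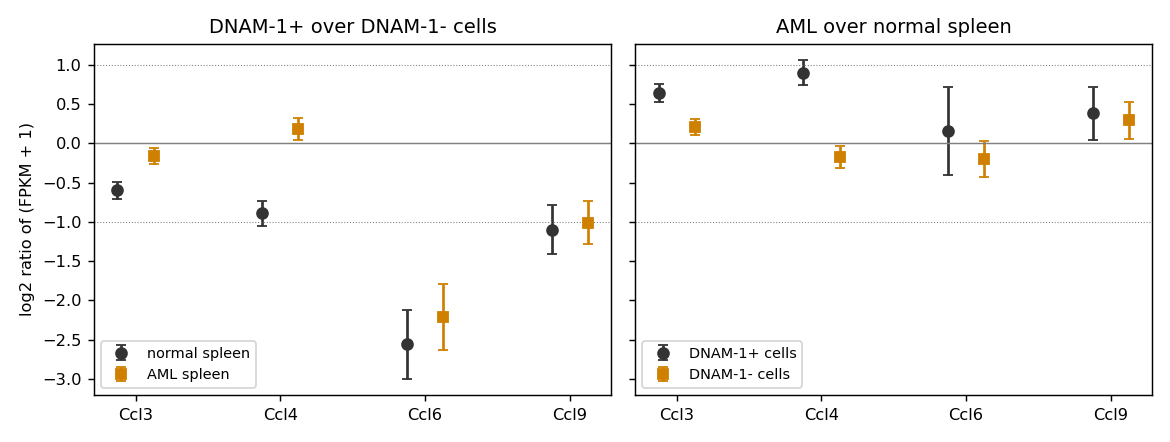
Log2 ratio of (FPKM + 1) for each gene, DNAM-1+ over DNAM-1- cells in the 2 spleens (left) and AML over normal spleen in the 2 sorted fractions (right). Bars have the width of the 95% counting intervals but are centred on ratios with 1 FPKM added. The intervals in the text are around the plain ratios. Dotted lines mark a 2-fold difference. Ccl6 and Ccl9 lay at or below -1 in both spleens, and Ccl4 moved from -0.89 to 0.18.

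Between the spleens, the DNAM-1+ libraries differed more in Ccl3 and Ccl4 than the DNAM-1- libraries. In DNAM-1+ cells Ccl3 was 1.56-fold (1.45 to 1.69) and Ccl4 1.88-fold (1.68 to 2.11) higher in AML than in normal spleen. In DNAM-1- cells Ccl3 was 1.15-fold higher (1.08 to 1.23) and Ccl4 1.12-fold lower (1.02 to 1.24). Ccl9 was 1.37-fold higher (1.08 to 1.73) in DNAM-1+ and 1.25-fold higher (1.06 to 1.46) in DNAM-1- cells of AML spleen. Ccl6 was at 4.24 against 3.73 FPKM and at 23.24 against 26.88, and both counting intervals included 1. For Ccl3 both AML libraries lay above both normal libraries, as did 15.1% of all genes, while for Ccl4, Ccl6 and Ccl9 the spleens overlapped. These ratios use the same libraries as the DNAM-1 ratios above and are not a second line of evidence.

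None of the 4 genes was 2-fold different between the spleens in either fraction, beside 0.311% of genes higher and 0.346% lower in the DNAM-1+ fraction (0.036% and 0.132% of protein-coding genes) and 0.193% and 0.397% in the DNAM-1- fraction (0.0237% and 0.201%). Ccl6 did not reach 5 FPKM in either DNAM-1+ library. limma called none of them for AML, beside 0.0661% of genes higher and 0.287% lower, and 2 were higher at an unadjusted p under 0.05. Ccl3 differed by 0.42 on the log2 scale (SE 0.10, adjusted p = 0.229), Ccl9 by 0.34 (SE 0.10, adjusted p = 0.288), Ccl4 by 0.37 (SE 0.22, adjusted p = 0.556) and Ccl6 by -0.03 (SE 0.11, adjusted p = 0.948). Their median was 0.35, and over all genes it was 0.

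The sequence upstream of the 2 genes that fell is shown because they are neighbours, and their start regions share short exact runs. The windows run from 250 bases before to 50 bases after the RefSeq transcript start (build GRCm38.p6, minus strand), 5′ to 3′ along the gene, and capitals mark exact runs of 12 or more bases found in both. RefSeq windows matched 3 of the 4 genes, and that of Ccl4 is not shown.
Ccl6, chr11:83593038-83593337: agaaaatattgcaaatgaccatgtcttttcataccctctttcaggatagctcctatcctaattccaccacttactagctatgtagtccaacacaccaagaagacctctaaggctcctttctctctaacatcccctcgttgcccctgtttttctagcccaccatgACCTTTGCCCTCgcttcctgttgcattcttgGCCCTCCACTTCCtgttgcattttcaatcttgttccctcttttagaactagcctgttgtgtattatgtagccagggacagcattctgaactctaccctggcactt
Ccl9, chr11:83578587-83578886: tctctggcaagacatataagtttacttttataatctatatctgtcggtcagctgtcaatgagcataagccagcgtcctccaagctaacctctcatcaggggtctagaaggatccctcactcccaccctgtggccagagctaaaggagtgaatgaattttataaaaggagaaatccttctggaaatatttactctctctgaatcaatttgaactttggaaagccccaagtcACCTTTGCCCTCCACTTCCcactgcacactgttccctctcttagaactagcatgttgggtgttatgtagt

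The capitals of Ccl9 span 19 bases, from -20 to -2, where shared runs of 12 and 13 bases overlap. In Ccl6 these runs stand apart, with 12 bases at -86 to -75 and 13 bases at -55 to -43. The 19 bases as a whole do not occur in the Ccl6 window. Motifs were searched on both strands. The ETS core GGAAGT was found once in each of the Ccl3, Ccl6 and Ccl9 windows and in 23.8% of 32851 RefSeq windows of the same length. In Ccl6 (at -48) and Ccl9 (at -7) it lay inside the shared run of 13 bases, on the opposite strand. Ccl9 held 1 match of the AP-1 motif TGANTCA at -53 (7.81% of windows), 1 of the kappaB motif (8.46%) and 3 of TATAAA (13.6%), 2 of which overlap. The C/EBP motif TTGCNNAA, in 10.8% of windows, was found in none of the 3. Ccl3 also held 1 match each of the PU.1 box GAGGAA (28.3%) and the RUNX motif TGTGGT (16.8%). A match describes the letters and is not shown to be a bound site.

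The Ccl3 window is shown for comparison, since Ccl3 was far more abundant and was not called. Capitals mark its ETS, RUNX and PU.1 matches.
Ccl3, chr11:83649329-83649628: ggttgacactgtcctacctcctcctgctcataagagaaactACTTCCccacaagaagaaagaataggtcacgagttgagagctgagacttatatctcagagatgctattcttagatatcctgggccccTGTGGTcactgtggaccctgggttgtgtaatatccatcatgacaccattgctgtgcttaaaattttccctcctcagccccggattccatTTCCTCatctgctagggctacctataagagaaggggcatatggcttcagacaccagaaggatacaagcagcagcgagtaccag

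Markers of other blood cells differed between the sorted fractions in the direction of Ccl6 and Ccl9. The 12 macrophage markers summed to 71.2 and 79.5 FPKM in DNAM-1+ cells (normal and AML spleen) and to 437 and 349.8 in DNAM-1- cells, and 4 of 12 had a 2-fold lower level in the DNAM-1+ fraction of both spleens. The 12 non-classical monocyte markers summed to 527.8 and 595.2 against 932.1 and 910.5 FPKM, and 8 of 12 were 2-fold lower in both. The 12 general monocyte markers summed to 554.1 and 624.8 against 1008 and 1042, with 5 of 12 lower in both. No marker on these lists was at 0 in a library. By mean level over the 4 libraries, the most abundant members of the monocyte lists were Itgam and Ly6c2 in one and Spn and Nr4a1 in the other, which NK cells also express. The log2 ratios of single general monocyte markers ran from -2.99 (Lyz2) to 0.31 (Ccr2) in normal and from -2.57 (Lyz2) to 0.38 (Ccr2) in AML spleen, so that the list did not move as one. Lyz2, the lysozyme gene of monocytes and macrophages, was at 29.26 against 239.17 FPKM without leukaemia and at 41.91 against 253.92 with it. Apoe carried most of the macrophage sum, at 38.84, 334.11, 43 and 266.4 FPKM in the same library order. Without Apoe the macrophage sum was 32.4, 103, 36.5 and 83.4 FPKM. Lyz2, Ccr2 and Apoe were chosen after their values were seen, as was leaving Apoe out.

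Set against marker sums, Ccl6 was lower in the DNAM-1+ library of each spleen with every list shown, by an amount that differed between lists. Per 100 FPKM of macrophage markers it was 5.24, 6.15, 5.33 and 6.64 in the same library order with Apoe and 11.5, 26.1, 11.6 and 27.9 without it. Per 100 FPKM of B cell markers it was 1.58, 2.36, 1.63 and 2.13, and per 100 FPKM of non-classical monocyte markers 0.707, 2.88, 0.712 and 2.55. General monocyte markers gave 0.673, 2.67, 0.679 and 2.23, and neutrophil markers 2.7, 12.8, 4.05 and 13.2. Ccl9 per 100 FPKM of macrophage markers was 6.19, 2.42, 7.6 and 3.77 with Apoe and 13.6, 10.3, 16.5 and 15.8 without it. With B cell markers it was 1.87, 0.927, 2.32 and 1.21, and with general monocyte markers 0.796, 1.05, 0.967 and 1.27. With non-classical monocyte and neutrophil markers Ccl9 was also lower in the DNAM-1+ library of each spleen, so its direction depended on the list. The part of these cells in the differences of Ccl6 and Ccl9 was not tested.

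All 12 B cell markers were also 2-fold lower in the DNAM-1+ fraction of both spleens, with sums of 235.6 and 260.5 against 1140 and 1093 FPKM and none at 0. Neutrophil markers summed to 138.1 and 104.7 against 210.6 and 175.4 FPKM (1 of 12 lower in both), plasma cell markers to 73.91 and 80.24 against 213.1 and 322.5 (5 of 8, with Tnfrsf17 at 0 in 1 library), and dendritic cell markers to 273.6 and 277.8 against 312 and 295.3 (2 of 12). T cell markers went the other way, with sums of 142.6 and 144.4 against 79.08 and 81.42 FPKM and 4 of 12 at a 2-fold higher level in the DNAM-1+ fraction. Basophil and mast cell markers summed to 22.3 and 30.08 against 10.11 and 12.59 FPKM, carried by Kit (named after its values were seen), with Fcer1a and Il4 at 0 in all 4 libraries. Erythroid and platelet markers summed to between 11.33 and 19.04 FPKM. Leukaemia and progenitor markers summed to 20.24 and 10.3 FPKM in normal and 32.16 and 18.1 in AML spleen. Without Kit, left out after its values were seen, they summed to 2.36 and 2.44 FPKM in normal and 6.86 and 8.32 in AML spleen, with Mpo (also chosen so) at 0.25 and 0.26 against 1.58 and 2.29. The part of these cells in the AML differences was not tested. The part of any of these cells in the levels of Ccl3 and Ccl4 was not tested.

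**Figure D3:**
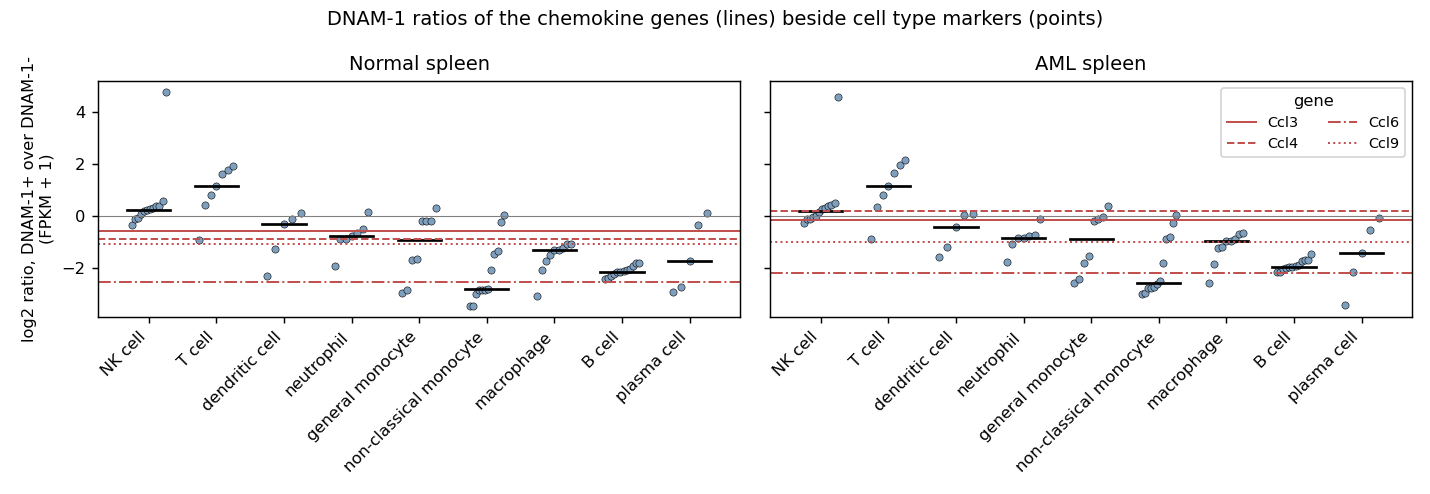
Log2 ratio of (FPKM + 1), DNAM-1+ over DNAM-1- cells, for marker genes that reached 5 FPKM in a library (points, with the list's median as a black bar) and for the 4 chemokine genes (red lines), in normal and AML spleen. The line of Ccl6 (-2.56 and -2.21) lies below all 12 B cell markers and within the range of the non-classical monocyte markers, and that of Ccl4 moves from -0.89 to 0.18.

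Ccr1, a receptor of CCL3, CCL6 and CCL9 but not the only one of CCL3, was near the limit of detection. It was at 0.34, 0.44, 0.08 and 0.47 FPKM in the same library order. Of 18 chemokine receptors with other ligands, 8 were tested, 2 rose and 5 fell, beside 7.35% and 8.38% of all genes tested. Cxcr3, an effector lymphocyte receptor, was at 40.95, 18.51, 45.04 and 13.79 FPKM in the same library order. It rose by 1.37 (SE 0.12, limma adjusted p = 0.000916), beside the higher T cell markers, and Ccr2 rose by 0.34. Ccr7 and Ccr6 fell by 1.95 and 1.82, beside the lower B cell markers. The part of T cells or B cells in these differences was not tested.

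Most other chemokine genes were below 5 FPKM in these libraries. Ccl5 (RANTES), the neighbour of Ccl9 in the cluster, was far more abundant, at 5390.02, 4682.1, 6089.24 and 5551.67 FPKM in the same library order. Its level was between 18.8 and 32.9 times that of Ccl3. Ccl5 differed by 0.17 on the log2 scale between the sorted fractions (SE 0.06, limma adjusted p = 0.119) and was not called. Of 17 other CC chemokine genes, 7 were not listed in any library, 8 stayed below 5 FPKM and 2 were tested. limma called none of them, and 1 was higher at an unadjusted p under 0.05. Among 17 chemokines of the other classes only Xcl1 reached 5 FPKM. Xcl1, which attracts dendritic cells, rose by 1.00 (SE 0.11, limma adjusted p = 0.00211), at 284.47 against 167.33 FPKM without leukaemia and 382.42 against 162.1 with it.

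Along the chromosome, RefSeq places 14 genes from Ccl5 to Wfdc17, in the order Ccl5, Ccl9, Ccl6, Ccl3 and Ccl4 for the chemokines. Of the 14, 7 were listed in a library and 6 reached 5 FPKM. Wfdc17, a small secreted protein gene beyond Ccl4, was named after its values were seen. It was at 1.66 against 8.88 FPKM without leukaemia and 1.93 against 7.81 with it, and fell by 1.74 (SE 0.18, limma adjusted p = 0.0018). Ccl3 and Ccl4 lie between Ccl6 and Wfdc17, which both fell. The noncoding gene E230016K23Rik, named for its position between Ccl9 and Ccl6 in this order, was at 1.37, 3.14, 1.94 and 2.82 FPKM.

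A list of cytokine genes of NK cells was measured beside Ccl3 and Ccl4, and its genes are not all known to be induced with them. Ifng, the gene of interferon-γ, was at 64.23 against 70.9 FPKM without leukaemia and 81.87 against 69.99 with it. Its log2 ratio went from -0.14 to 0.22, and the mean difference was 0.04 (SE 0.09, limma adjusted p = 0.809). Tnf stayed between 3.49 and 4.27 FPKM in all libraries. Of the 13 genes of this list, 6 were tested, 4 rose and none fell (none at an unadjusted p under 0.05), with a median log2 difference of 0.50 beside 0.01 over all genes. They were Xcl1, the dendritic cell growth factor gene Flt3l (0.67, SE 0.06, limma adjusted p = 0.00105), Tnfsf14 (0.65) and Ltb (0.35), both of the TNF family.

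Transcription factors known to induce Ccl3 and Ccl4 were lower in DNAM-1+ cells or were not called. All 19 of the list were tested, 8 fell and none rose (none at an unadjusted p under 0.05). Over all genes 8.38% fell and 7.35% rose. The median of the list was -0.11 beside 0.01 over all genes. Cebpb was at 12.38, 39.88, 17.27 and 43.02 FPKM in the same library order, low in both DNAM-1+ libraries. Irf4 fell by 1.60 (SE 0.12, limma adjusted p = 0.000429) and Cebpb by 1.44 (SE 0.09, adjusted p = 0.00022), and B cells or myeloid cells, whose markers were also lower, express them. Nfkb2 fell by 0.30 and Jun by 0.51. Jun was at 66.43 against 116.1 FPKM without leukaemia and 92 against 108.21 with it, so that its DNAM-1+ normal library was the lowest of the 4, as for Ccl3 and Ccl4.

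Feedback inhibitors of these pathways and factors that degrade cytokine mRNA were also measured. Of 18 tested, 7 fell and 1 rose, beside 8.38% and 7.35% of all genes, with a median of -0.19. Nr4a1, an early response gene of antigen receptor signalling, was at 65.14, 166.97, 72.53 and 127.38 FPKM. It fell by 1.07 (SE 0.12, limma adjusted p = 0.00242), the ERK phosphatase gene Dusp6 by 0.89 and the RNase gene Zc3h12a by 0.33, while Nr4a3 rose by 0.47 (SE 0.12, adjusted p = 0.0473). For AML against normal spleen 2 of the 18 rose and none fell (none at an unadjusted p under 0.05). Over all genes 0.0661% rose and 0.287% fell. Zfp36l2 rose from 255.69 and 276.58 to 409.61 and 419.95 FPKM, by 0.64 (limma adjusted p = 0.0197), and Dusp2 by 0.74 (adjusted p = 0.0297). Both were named after their values were seen. Of 12 genes of chemokine storage and processing, 11 were tested. Of these, 2 fell and none rose (4 at an unadjusted p under 0.05), beside 8.38% and 7.35% of all genes. Dpp4, a peptidase that trims chemokines, fell by 1.35 (SE 0.12, limma adjusted p = 0.000961) and the proteoglycan gene Sdc4 by 0.82. Srgn, the granule proteoglycan that carries chemokines, was at 294.6 to 330.03 FPKM and was named after its values were seen. For AML, limma called no gene of the other lists described here, and the unadjusted p was under 0.05 for 5 genes higher and 1 lower among the 19 transcription factors.

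For each chemokine gene, the 5 protein-coding genes with the most similar pattern over the 4 libraries were found among 8657, by the root mean square difference of centred log2 values. For Ccl3 they were Nudt8 (0.037), Nr4a2 (0.049), Ppp1r15a (0.071), Atp6v0c (0.072) and Dusp1 (0.078). Nr4a2 was at 11.25, 19.17, 18.37 and 21.74 FPKM and Dusp1, a MAP kinase phosphatase gene, at 47.59, 76.07, 68.48 and 87.82, in the same library order. For Ccl4 they were Tubb2a (0.09) and, each at 0.12, E2f5, Rarres2, Egr3 and Oaz1. Ccl3 and Ccl4 differed from each other by 0.16, with Ccl3 in place 12 among the genes nearest to Ccl4 and Ccl4 in place 101 among those nearest to Ccl3.

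For Ccl6 the nearest genes were Grk3 (0.027), Fcmr (0.033), Cyp4f18 (0.042), Alox5ap (0.047) and Pparg (0.066). Alox5ap, needed for leukotriene synthesis in myeloid cells, was at 3.32, 25.81, 4.23 and 22.57 FPKM, and Fcmr, the IgM Fc receptor gene of B cells, at 24.48, 141.11, 27.16 and 129.2. For Ccl9 they were Adrb1 (0.023), Vcam1 (0.069), 5031439G07Rik (0.075), Ephx1 (0.10) and Rhbdf2 (0.12). Vcam1, one of the macrophage markers, was at 2.38, 7.11, 3.53 and 7.82 FPKM. Ccl6 and Ccl9 differed by 0.69, with a larger amplitude in Ccl6. With 4 libraries, many genes come close to any pattern.

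**Figure D4:**
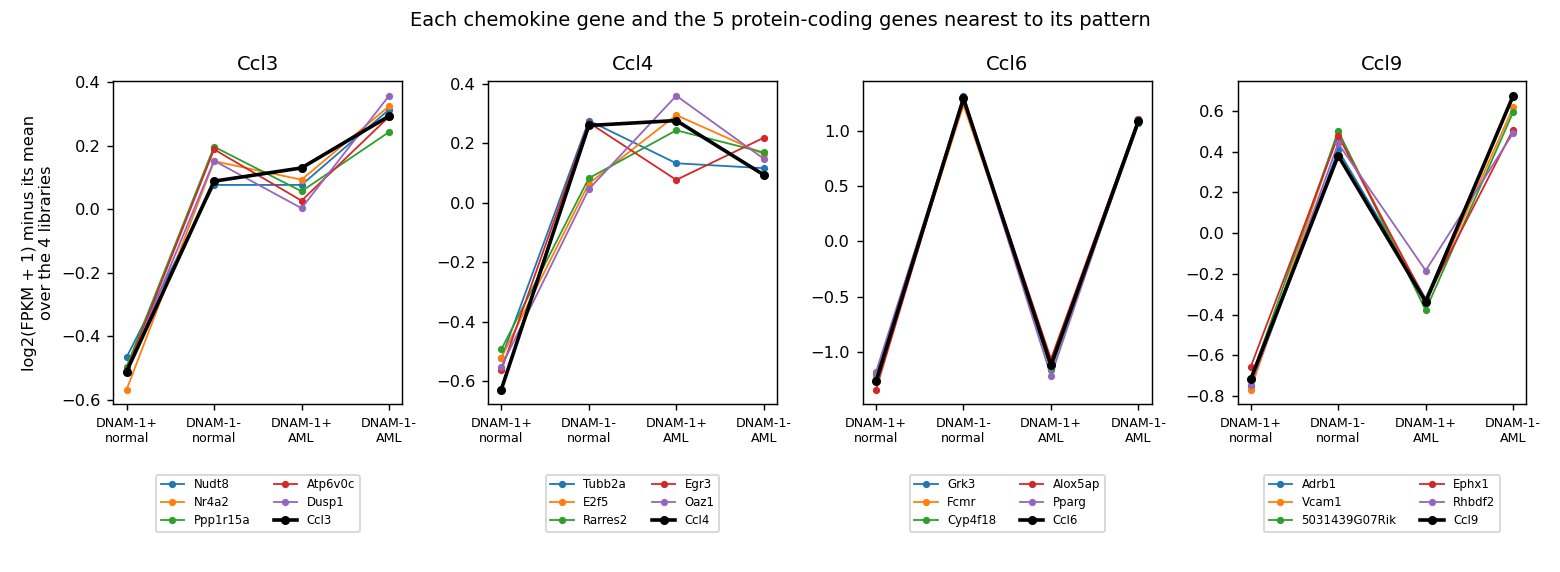
Centred log2(FPKM + 1) of each chemokine gene (black) and of the 5 protein-coding genes nearest to its pattern (colours) in the 4 libraries. Ccl3 and Ccl4 and their nearest genes were lowest in the DNAM-1+ normal library, and Ccl6 and Ccl9 and theirs were low in both DNAM-1+ libraries.

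The sequences of the transcripts bear on whether reads of one gene could be counted for another. In GENCODE M21 no stretch of 50 bases of Ccl3, Ccl4 or Ccl6 occurred in a transcript of another gene, and 59 of 2957 such stretches of Ccl9 did (2%). The longest exact run between Ccl3 and Ccl4 was 9 bases, and that between Ccl6 and Ccl9 was 25 bases.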

How the data were processed

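RNA of 4 sorted NK cell libraries was sequenced, per the labels on the BGISEQ-500 platform. Bowtie2 2.2.5 and RSEM are named in the submitters' processing notes, and the genome build and annotation are not given in the sources used here. Each deposited file gives FPKM for a gene number, per the file headers, with 2 decimals. A gene that a file does not list was taken as 0. Symbols came from the RefSeq table of GRCm38.p6, which matched 17668 of 17723 gene numbers.

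In R 4.3.3, limma 3.58.1 with a mean-variance trend was fitted to log2(FPKM + 1) of the 9074 genes that reached 5 FPKM in a library, with sorted fraction and spleen as additive terms and 1 residual degree of freedom. Calls are two-sided at a Benjamini-Hochberg adjusted p below 0.05 over all genes. The fit was also run on simulated data of additive effects and independent noise. Such data lack a change of the difference between the spleens, so they do not show how well the p-values hold here. The p-values of the fit weigh a mean difference against its residual, the change of the difference between the spleens, moderated across genes. They hold no spread between replicates. All ratios of 2 libraries are values with no test.

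Depth was estimated from microRNA genes of 55 to 150 nt. Values up to 6 reads lay within 0.1 step of a whole number of reads for 85%, 91.2%, 87.7% and 87.1% of values (80 to 91 a library) at 9200000, 8900000, 9000000 and 8800000 reads, with 35 to 36 nt subtracted from each length. Reads of a gene were then estimated with the GENCODE M21 transcript length, which may not be the one the authors used, and the intervals move with it.

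Genes named are the 4 chemokines, Ccl5, Ccr1, Ifng, Tnf and Xcl1, the 2 called genes of each list furthest up and the 2 furthest down by limma difference, the 5 nearest patterns of each chemokine, markers at 0, and the 2 most abundant markers of each monocyte list. One gene of the rule is not reported here. Others are marked where named, beside Cd226 as a check of the sort. Alternatives were the floor, pseudocount, scaling, trend, gene class and summed paralogs. The members and lists were chosen with earlier results of these data known.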

Additional observations from a re-analysis of the deposited data

Results flagged for a closer look

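Some genes moved in opposite directions in the 2 spleens or in the 2 sorted fractions, with 1 library on each side, and none of these differences was tested. Ccl4 had a DNAM-1 log2 ratio of -0.89 without and 0.18 with leukaemia, and an AML log2 ratio of 0.90 for DNAM-1+ and -0.17 for DNAM-1- cells. Ccl6 had an AML log2 ratio of 0.15 for DNAM-1+ and -0.20 for DNAM-1- cells, each with a counting interval that included 0. Ifng had a DNAM-1 log2 ratio of -0.14 without and 0.22 with leukaemia, and an AML log2 ratio of 0.35 for DNAM-1+ and -0.02 for DNAM-1- cells. Xcl1 had an AML log2 ratio of 0.43 for DNAM-1+ and -0.05 for DNAM-1- cells.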

How the results depend on the processing

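Of 182 alternative values for 32 results, 159 kept their direction and their side of the threshold, or moved by less than the counting interval. With no floor on low values, limma called no gene, so that 0 members fell, and Ccl6 (-2.38) and Ccl9 (-1.05) missed the threshold, each at an adjusted p of 0.117. Ccl3 passed it with a floor of 20 FPKM or with protein-coding genes alone (-0.38 in each). With a floor of 20 FPKM Ccl9 was not tested. With a pseudocount of 5 FPKM the DNAM-1 log2 ratios in normal and AML spleen were -1.87 and -1.61 for Ccl6 and -0.73 and -0.72 for Ccl9, which then missed the 2-fold limit.

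Summing Ccl3 with Ccl4 and Ccl6 with Ccl9 mixes genes of different level, which by construction moved the values of the single genes. For Ccl3 and Ccl4 together the DNAM-1 ratio was -0.70 without and -0.04 with leukaemia, a change of 0.66, and the AML ratio was 0.74 for DNAM-1+ and 0.08 for DNAM-1- cells. For Ccl6 and Ccl9 together the DNAM-1 ratio was -2.07 and -1.73, the AML ratio in DNAM-1- cells was -0.04, and the limma AML difference was 0.13 where that of Ccl6 alone was -0.03. Over the alternatives the adjusted p for the sorted fraction lay between 0.0189 and 0.319 for Ccl3, 0.142 and 0.616 for Ccl4, 3.45e-07 and 0.117 for Ccl6, and 6.62e-05 and 0.117 for Ccl9. Among all genes, limma called 667 higher and 760 lower in DNAM-1+ cells, 321 and 561 without the trend, 523 and 434 with a floor of 20 FPKM, and 0 and 0 with no floor. For AML it called 6 and 26, and 26 and 81 with protein-coding genes alone. Calls for Ccl6 in DNAM-1+ cells rest on 48 and 54 estimated reads. No paired analysis was possible because each group holds 1 library, with no replicate number and no mouse identified, and the spleen term of the fit is itself a condition compared.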
